A study of Mus musculus with 5 samples.

Results

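The genes described here are 10 members of the tumour necrosis factor (TNF) superfamily of ligands and receptors, with the receptor for the cytokine TWEAK among them. They were taken from a list of symbols: Tnfrsf12a, Tnfsf12, Tnfrsf1a, Tnfrsf1b, Tnfrsf21, Fas, Ltbr, Tnfsf10, Tnfsf13b and Tnf. All 10 had at least 1 probe, matched through the RefSeq accession printed with it. Together they had 17 of the 35078 gene probes, and 10 of the 15597 genes that could be named. Of the 17 probes, 11 were found above background by the scanner software on all 5 arrays, 3 on some and 3 on none. A gene was tested if 1 of its probes was found on at least 2 arrays, which 8 of the 10 genes met. Tnfsf12 and Tnfsf10 did not.

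RNA from colon was hybridised to single-colour arrays of long oligonucleotide probes. The 2 villin-TLR4 samples (1 female, 1 male) and the 3 samples of wild-type (WT) littermates (all female) came from mice bred on a C57Bl6 background, 10 weeks old at the start. Every animal had been given 7.4 mg/kg of azoxymethane (AOM), a colon carcinogen, and then dextran sulfate sodium (DSS), a polymer that damages the gut lining, in 2 cycles. Tumour-free colon was taken at day 56. DSS was given at 1.5% to the villin-TLR4 mice and at 3% to the WT littermates, so genotype and DSS concentration cannot be told apart, and no group without AOM and DSS was analysed here. Villin is an intestinal epithelial protein whose promoter directs transgenes to that cell layer, and TLR4 is the receptor for bacterial lipopolysaccharide. Values are normalised log2 intensities, and a group is given as its mean ± SD (n = 2 for villin-TLR4, n = 3 for WT littermates). Differences are villin-TLR4 minus WT littermate on the log2 scale with a standard error (SE) from limma, and adjusted p-values (Benjamini-Hochberg) are over all 15051 genes or unnamed probes tested. The number of arrays limits the precision.

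TNF superfamily ligands are mostly trimeric proteins that start out in the cell membrane and can be shed, and their receptors carry cysteine-rich repeats outside the cell. Receptors with a death domain, such as TNFR1 and Fas, can start caspase-driven cell death through the adaptor FADD. Receptors without one recruit TRAF adaptors and turn on NF-kappaB by a canonical or a non-canonical route. In the gut, TNF drives inflammation and is the target of antibody therapy in inflammatory bowel disease. TWEAK and its receptor Fn14, the product of Tnfrsf12a, act in tissue injury and repair, and Fn14 is scarce in healthy tissue and induced by growth factors and wounding.

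The proximal promoters of the genes with the largest differences between group means, Tnfrsf12a and Tnf, are shown because the 2 genes followed different patterns across the arrays. They come from RefSeq on the build GRCm38.p6. Each window runs 5′ to 3′ from 250 bases before the annotated start to 50 bases after it, at chr17:23677400-23677699 for Tnfrsf12a and chr17:35201958-35202257 for Tnf, both on the minus strand. Capitals mark GC boxes (GGGCGG on either strand) and a TATA box (TATAAA), the only matches among 5 motifs searched on both strands.
Tnfrsf12a: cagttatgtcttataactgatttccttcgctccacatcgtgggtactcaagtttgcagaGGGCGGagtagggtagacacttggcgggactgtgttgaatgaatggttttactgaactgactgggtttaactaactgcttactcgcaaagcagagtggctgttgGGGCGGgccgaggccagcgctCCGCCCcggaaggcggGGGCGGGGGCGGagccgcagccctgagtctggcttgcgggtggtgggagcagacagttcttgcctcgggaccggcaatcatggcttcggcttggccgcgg
Tnf: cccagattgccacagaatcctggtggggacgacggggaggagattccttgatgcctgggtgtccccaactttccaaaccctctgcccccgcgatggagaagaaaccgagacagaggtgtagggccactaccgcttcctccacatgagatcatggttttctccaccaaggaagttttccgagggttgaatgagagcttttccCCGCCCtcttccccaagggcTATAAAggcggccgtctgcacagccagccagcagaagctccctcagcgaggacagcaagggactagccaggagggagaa
The Tnfrsf12a window held 5 GC boxes, 2 of which abut and read as 1 run of capitals, and no TATA box. The Tnf window held 1 GC box and a TATA box whose bases lie 29 to 24 before the start. Over 32851 windows of this length, 35.7% held a GC box and 13.6% the TATA box. The AP-1 motif TGANTCA, the NF-kappaB consensus and the CArG box had no match in either window, and these were present in 7.81%, 4.51% and 1.63% of all windows. Among the 9 members with a window in the table, the AP-1 motif occurred in Fas and Tnfsf13b, and 6 members had a GC box. These windows are short, and a match is only a run of letters.

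The TWEAK receptor had the largest difference of the 8 tested members. Tnfrsf12a (probe mMC007797) read 9.51 and 10.24 on villin-TLR4 replicates 1 and 2, and 12.96, 12.42 and 11.06 on WT littermate replicates 1, 2 and 3. Every WT littermate array lay above both villin-TLR4 arrays, and the groups did not overlap. Before normalisation the signal over local background was 937 and 1017 in villin-TLR4, and 5499, 5786 and 3014 in the WT littermates. WT littermate replicate 1, highest after normalisation, was the dimmest array, with an upper quartile of signal over background of 116 against 256 to 481 on the others.

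The group means were 9.87 ± 0.52 in villin-TLR4 and 12.14 ± 0.98 in WT littermates, giving a log2 difference of -2.27 ± 0.58 (SE), or 4.82-fold higher in WT littermates. The 95% interval of the log2 difference ran from -3.66 to -0.88. The unadjusted p was 0.0068 and the adjusted p 0.87 with limma, so Tnfrsf12a did not pass over all genes. By p it ranked 99 and by the size of a negative difference 38 among the 15051. The difference kept its sign when each array was left out in turn, between -2.81 and -1.86, and was -2.18 between the villin-TLR4 and the WT littermate array scanned on the same day. That pair differs in sex as well, male for villin-TLR4 and female for WT.

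**Figure D1:**
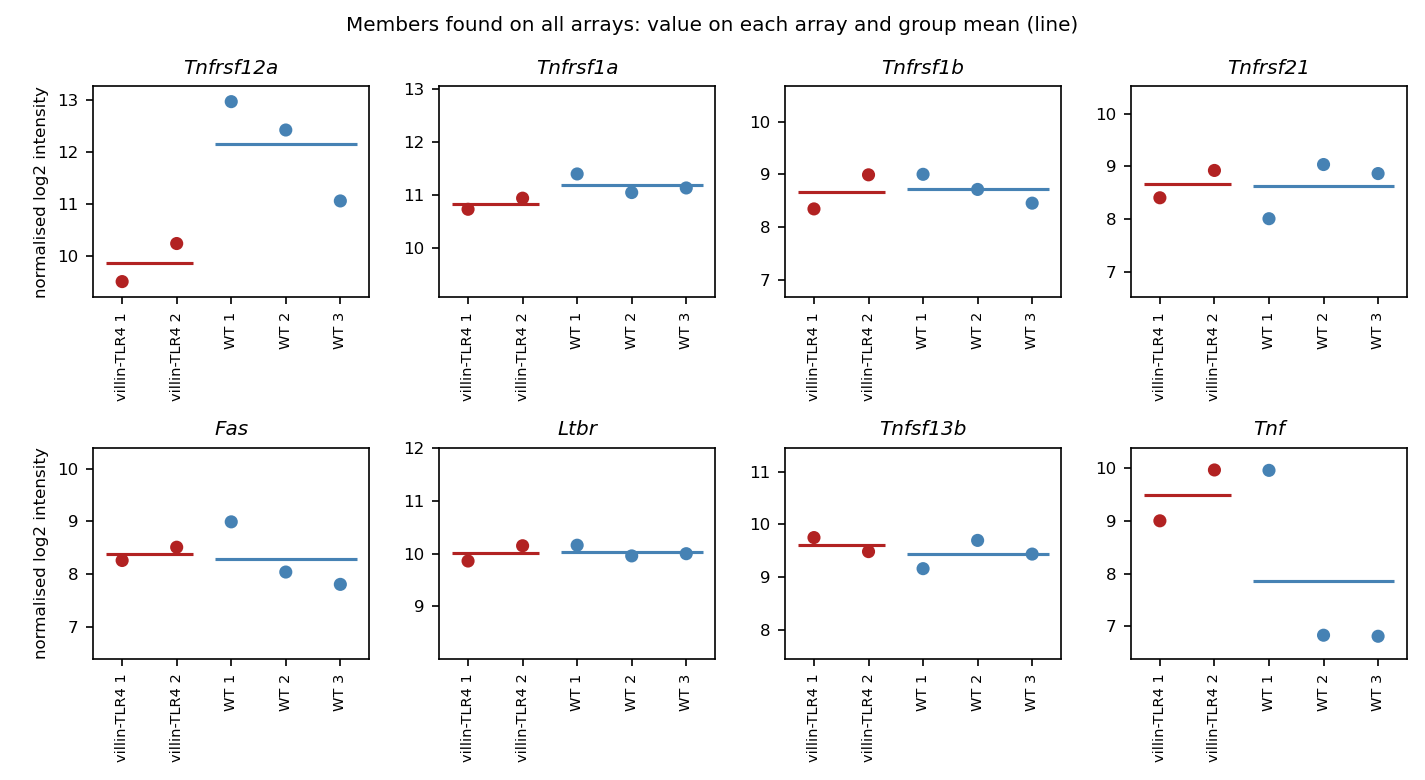
Normalised log2 intensity (y axis) of the 8 tested members on each of the 5 arrays (x axis), with villin-TLR4 in red, WT littermates in blue and a line at each group mean. All panels span at least 4 log2 units. Tnfrsf12a separates the groups by the widest gap, while Tnf is high on 3 arrays, 1 of them WT littermate replicate 1, and low on the other two.

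The ligand of this receptor could not be followed. The single probe for Tnfsf12, which encodes TWEAK, was found on no array, with a signal over background of 8 and 3 in villin-TLR4 and 13, 1 and 3 in the WT littermates. A signal this low sets no level for TWEAK and allows no comparison.

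Tnf itself split the arrays in another way. Tnf (probe mMC016605) read 9.0 and 9.96 on villin-TLR4 replicates 1 and 2, and 9.95, 6.83 and 6.81 on WT littermate replicates 1, 2 and 3. Both villin-TLR4 arrays and WT littermate replicate 1 were high, and WT littermate replicates 2 and 3 were low, with signals over background of 55 and 70 against 392 to 825 on the other arrays. The means were 9.48 ± 0.68 in villin-TLR4 and 7.87 ± 1.81 in WT littermates, for a difference of 1.61 ± 0.98 (SE) with an adjusted p of 0.87 by limma and a 95% interval from -0.75 to 3.98. The groups overlapped. Without WT littermate replicate 1 the difference was 2.66 (unadjusted p = 0.00026, adjusted p = 0.16 by limma), and on the shared scan day it was 3.13. Of all genes tested, 41, or 0.272%, had both villin-TLR4 arrays and WT littermate replicate 1 more than 1 log2 unit above WT littermate replicates 2 and 3, a pattern defined after the values of Tnf were seen.

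The estimated differences of the TNF receptors were smaller in size than that of Tnf, whose 95% interval, from -0.75 to 3.98, includes them. The ligand was not tested against the receptors. Tnfrsf1a encodes TNFR1, the widely expressed death-domain receptor. Its brightest probe read 10.73 and 10.94 in villin-TLR4 and 11.39, 11.04 and 11.13 in WT littermates, for a difference of -0.36 ± 0.24 (SE) with an adjusted p of 0.87 by limma. The groups of this probe did not overlap, but the gap between them was small, and those of the second probe, with a difference of -0.31, overlapped. Tnfrsf1b encodes TNFR2, the receptor that lacks a death domain and is prominent on leukocytes. It read 8.35 and 8.99 in villin-TLR4 and 9.0, 8.71 and 8.45 in WT littermates, for a difference of -0.05 ± 0.31 (SE) with a 95% interval from -0.79 to 0.68. Its other probes gave -0.33 and 0.19, the last from a probe found on 3 arrays only. No direction could be given for Tnfrsf1b.

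Fas and Tnfrsf21, death receptors like TNFR1, overlapped between the genotypes. Fas, the receptor for Fas ligand, read 8.26 and 8.51 in villin-TLR4 and 8.99, 8.04 and 7.81 in WT littermates. It was highest on WT littermate replicate 1, and the other WT littermate arrays lay below both villin-TLR4 arrays. The difference was 0.11 ± 0.39 (SE), or 0.46 without that array, and the second probe gave -0.08. Tnfrsf21, another receptor with a death domain, read 8.41 and 8.92 in villin-TLR4 and 8.01, 9.04 and 8.87 in WT littermates. Here WT littermate replicate 1, the dimmest array, was lowest. The signal over background there was 78 against 359 to 630 elsewhere, and the difference was 0.03 ± 0.38 (SE). The second Tnfrsf21 probe, found on 4 arrays but not on WT littermate replicate 1, gave 0.22. Tnfsf10, which encodes the death ligand TRAIL, was found on 1 array, villin-TLR4 replicate 2, with a signal over background of 32, and was not tested. Its other arrays gave 14 to 37, so no order between the groups was read from it.

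The members tied to lymphoid tissue were also flat. Ltbr, the lymphotoxin beta receptor that organises lymphoid structures, read 9.86 and 10.15 in villin-TLR4 and 10.16, 9.95 and 10.00 in WT littermates. It had the narrowest 95% interval of the 8 tested members, from -0.60 to 0.53 around a difference of -0.03. Tnfsf13b encodes BAFF, a survival factor for B cells, and read 9.75 and 9.48 in villin-TLR4 and 9.16, 9.70 and 9.44 in WT littermates, for a difference of 0.19 ± 0.26 (SE). Of its 3 probes, 2 were found on no array, so BAFF rests on 1 probe.

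**Figure D2:**
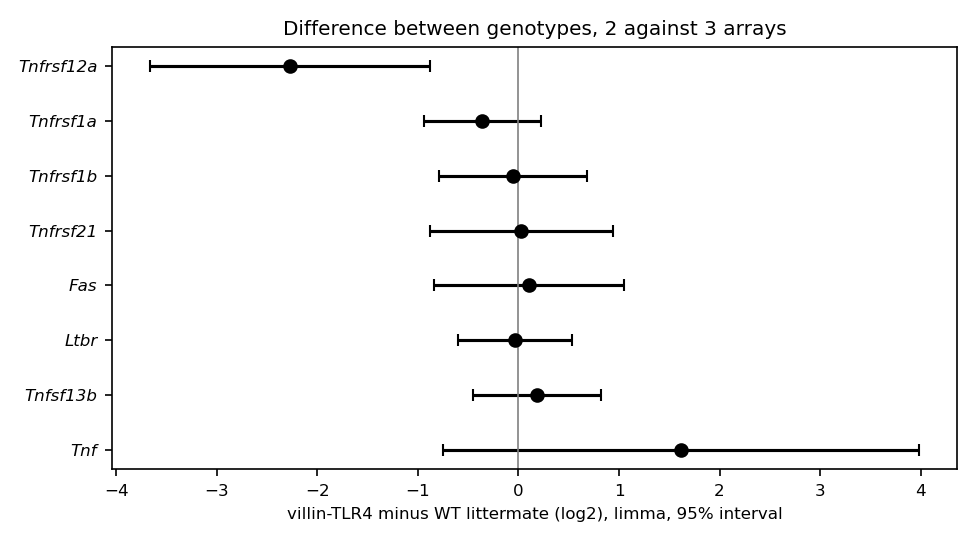
Difference between genotypes (x axis, villin-TLR4 minus WT littermate, log2) for the 8 tested members, with the 95% interval of limma's moderated test from 2 against 3 arrays. The unadjusted interval of Tnfrsf12a, from -3.66 to -0.88, leaves out 0, and those of the other members include it.

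In all, 0 of the 8 tested members had an adjusted p under 0.05 with limma, as did 0.0% of all genes. At an unadjusted p under 0.05 there was 1, Tnfrsf12a, against 4.85% of all genes (2.7% higher and 2.15% lower in villin-TLR4). Without WT littermate replicate 1 there were 2, Tnfrsf12a lower and Tnf higher, against 10.9% of all genes (5.31% higher and 5.58% lower). Groups did not overlap for 2 of the 8, Tnfrsf12a and Tnfrsf1a, against 26.1% of all genes (13.0% higher and 13.1% lower), so that count is near the background. The other 6 overlapped. Of the 8 differences, 4 were above 0 and 4 below, where 50.9% of all genes were above 0, with a median of -0.0028, and 6 lay within 0.4 of 0, as did 69.6% of all genes. A difference of -2.0 or lower was seen in 47 genes, or 0.312%, and one of 1.5 or higher in 127, or 0.844%.

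WT littermate replicate 1 stood apart from the other arrays. It had 13352 gene probes found, against 16380 to 19509 on the others, 1240 bad spots where no other array had more than 4, and correlations across genes, which are not independent replicates, of 0.885 to 0.895 with the other arrays. Of 9 neutrophil markers 4 were measured, and their mean log2 level was 12.01 on this array, 6.95 and 7.56 on the other WT littermate arrays and 7.75 to 8.20 in villin-TLR4. Cxcr2, Mmp8, Ly6g, Camp and Ngp were not measured. The 8 measured of 11 macrophage and monocyte markers averaged 11.00 on it and 9.91 to 10.44 on the other 4 arrays, with Cd68, Csf1r and Ly6c2 not measured. The 12 measured colon epithelium markers, among them Epcam, Vil1 and Car1, averaged 12.04 on it and 12.78 to 13.34 elsewhere, so the tissue carried its defining markers on every array. Of the 8 tested members, 5 had their highest value of the 5 arrays on this one: Tnfrsf12a, Tnfrsf1a, Fas and, by a margin that rounds to 0.01, Tnfrsf1b and Ltbr. Tnf, at 9.95, was next to its highest value of 9.96, and Tnfrsf21 and Tnfsf13b had their lowest value there. The part of the neutrophil markers in this was not tested, and the share of all genes highest on this array was not counted. The 5 of 8 therefore has no background beside it. In whole tissue, fewer cells of a type and less RNA per cell cannot be told apart.

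Markers of exocrine pancreas and of Paneth cells and small intestine differed between the groups in the direction of Tnfrsf12a. The 7 measured of 10 exocrine pancreas genes averaged 8.62 to 12.92 on the WT littermate arrays and 7.65 to 7.80 on the villin-TLR4 arrays, with Cpb1, Amy2b and Prss2 not measured. The 6 measured of 11 Paneth cell and small intestinal genes averaged 9.62 to 10.77 against 7.61 to 8.11, with Defa5, Defa24, Apob, Lct and Sis not measured. Within the WT littermate arrays the lists ran differently. The pancreas genes averaged 8.62, 10.21 and 12.92 on replicates 1, 2 and 3 and were highest on replicate 3, where Tnfrsf12a was lowest of the WT littermate arrays. The Paneth cell and small intestinal genes averaged 10.77, 9.62 and 10.48 and were highest on replicate 1, where Tnfrsf12a was highest too. The tissue of origin of these 2 lists and their part in the Tnfrsf12a difference were not tested.

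The wider pathway was described with 8 further lists of 103 genes in all that are not members, of which 76 were measured. None of the 76 had an adjusted p under 0.05 with limma. At an unadjusted p under 0.05 there were 3 higher and 3 lower in villin-TLR4, against 2.7% and 2.15% of all genes. Of the 76 differences 37 were above 0 and 39 below, with a median of -0.01 against 0.01 over all genes, and the groups did not overlap for 35.5% of them against 26.1% of all genes. Without WT littermate replicate 1, 20 of the 76, or 26.3%, had an unadjusted p under 0.05, 14 higher and 6 lower, against 10.9% of all genes, and still 0 passed.

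Most other ligands were not measured, that is, had no probe found on at least 2 arrays. Of 14, 4 were measured, and the ligands not measured included Fasl, Lta, Tnfsf14 and Cd40lg. Ltb, which encodes lymphotoxin beta, a ligand of the Ltbr product, read 7.07 and 7.38 in villin-TLR4 and 7.78, 7.94 and 7.71 in WT littermates, for a difference of -0.58 ± 0.24 (SE). Its groups did not overlap, and WT littermates were higher. The Ltb value on WT littermate replicate 1 equals the lowest signal well above background on that array, 7.78. The villin-TLR4 values lie close to those limits, 6.92 and 7.17, so the size of the difference is uncertain. Tnfsf13, encoding APRIL, gave 0.32 ± 0.59, or 0.87 without WT littermate replicate 1 and 1.58 on the shared scan day. Tnfsf11, encoding RANKL, gave -0.28 ± 0.48 but 0.20 without that array and 0.28 on that day, so no direction could be given.

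Among other receptors, 16 of 22 were measured, 8 on each side of 0, with a median of 0.05. Tnfrsf8, which encodes CD30, read 7.97 and 7.73 in villin-TLR4 and 6.71, 6.86 and 6.38 in WT littermates, where it was found on 1 of the 3 arrays, a difference of 1.20 ± 0.26 (SE). The values on WT littermate replicates 1 and 3 lie under 7.78 and 6.75, the lowest signals well above background on those arrays. The value on replicate 2 is close to that limit, 6.76, so the size of the difference is uncertain. Its 3 kept probes ranged from 0.36 to 1.20. Tnfrsf19, a receptor known from stem and progenitor cells, gave 0.70 ± 0.23 and Tnfrsf11a, the receptor RANK, 0.78 ± 0.34, both with no overlap and higher in villin-TLR4. Cd40, the co-stimulatory receptor of B cells and dendritic cells, was found on no villin-TLR4 array and on all WT littermate arrays, which puts WT littermates at least 1.32-fold higher. That bound sets the WT littermate mean against the higher, per array, of the villin-TLR4 signal and the lowest signal that was found and exceeded background by more than 2 background SDs. It rests on WT littermate replicate 1, at 8.28, since replicates 2 and 3 read 7.03 and 7.02, under the lowest such signal of 7.17 on villin-TLR4 replicate 2, and without replicate 1 no fold can be given. The measured difference was -0.82 ± 0.44, or -0.40 without that array and -0.18 on the shared scan day. None of these receptors passed.

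Inside the cell, the adaptors, kinases and ubiquitin ligases next to the receptors were split, with 10 of 21 measured genes above 0 and 11 below and a median of -0.01. Traf1, an adaptor induced by NF-kappaB, read 7.24 and 7.60 in villin-TLR4 and 8.53, 8.18 and 8.57 in WT littermates, for a difference of -1.01 ± 0.26 (SE). Birc3, the ubiquitin ligase cIAP2, had log2 values of 10.69 and 10.89 in villin-TLR4 and 10.66, 9.59 and 9.56 in WT littermates, with a difference of 0.85 ± 0.39, or 1.21 without WT littermate replicate 1. Like Tnf, it was high on that array and low on WT littermate replicates 2 and 3. Traf3, a brake on the non-canonical pathway, gave 0.61 ± 0.32 and the deubiquitinase Cyld 0.38 ± 0.23.

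The non-canonical NF-kappaB list, which shares Birc3 and Traf3 with the previous one, had 5 of 7 measured genes above 0 and a median of 0.23. That median was 0.093 without WT littermate replicate 1 and 0.090 on the shared scan day. Relb and Nfkb2, the transcription factor subunits of this route, gave 0.39 ± 0.34 and 0.23 ± 0.25. The 5 chemokine and adhesion genes that lymphotoxin beta receptor signalling maintains had a median of 0.37. The 5 measured of 6 endothelial markers averaged 8.94 to 8.98 in villin-TLR4 and 8.49 to 8.83 in WT littermates, with Kdr not measured, and their part in these values was not tested. Cxcl12 read 10.99 and 10.45 in villin-TLR4 and 8.05, 9.74 and 9.65 in WT littermates, for a difference of 1.57 ± 0.55 (SE), but its 4 kept probes ranged from -0.06 to 1.57. Cxcl13, the B cell chemokine, gave 0.61 ± 0.29, Madcam1, the gut homing addressin, 0.37 ± 0.29 and Ccl21a -0.34 ± 0.34. Ccl21a has near-identical gene copies, which a probe may not tell apart.

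Cell death effectors downstream of the death receptors showed 6 of 11 measured genes above 0 and a median of 0.09. Casp8, the initiator caspase, read 11.50 and 11.87 in villin-TLR4 and 11.94, 12.72 and 11.96 in WT littermates, with a difference of -0.52 ± 0.33 (SE). Fadd, the adaptor that recruits it, gave -0.40 ± 0.27 from its brightest probe, and its 3 kept probes ranged from -0.40 to 0.09. Diablo, an antagonist of inhibitor-of-apoptosis proteins, gave -0.45 ± 0.25. Cflar, Bid, Bak1, Ripk3 and Mlkl were not measured.

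All 6 genes of ligand and receptor shedding were measured, with a median of -0.07. Rhbdf2, which encodes the iRhom that carries the TNF-releasing protease ADAM17 to the cell surface, gave 0.45 ± 0.24 with no overlap, higher in villin-TLR4. Furin, a protease that cleaves TWEAK and BAFF precursors, gave -0.23 ± 0.27, with villin-TLR4 below WT littermates by a narrow gap (9.06 and 9.10 against 9.67, 9.13 and 9.14). Adam10 gave -0.13 ± 0.23, with its 2 probes on opposite sides of 0, and Timp3, an inhibitor of ADAM17, -0.19 ± 0.38.

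**Figure D3:**
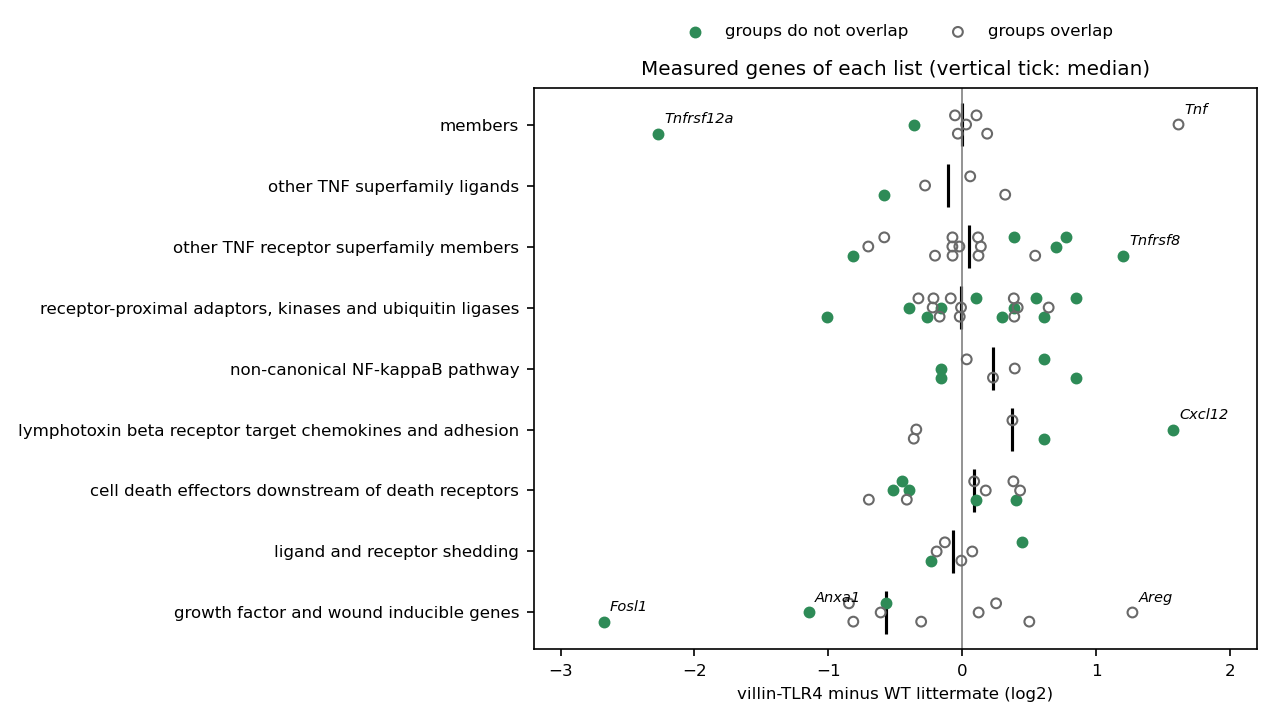
Difference between genotypes (x axis, villin-TLR4 minus WT littermate, log2) of each measured gene in the 8 members and the 8 pathway lists (rows), filled green where the groups do not overlap and open where they do. Vertical ticks are list medians and the names are genes beyond 1.1 from 0. Fosl1 and Tnfrsf12a lie farthest to the left, and no gene shown passed over all genes.

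Fn14 belongs to the genes that growth factors and wounding induce, and 11 of 14 listed genes of that kind were measured. Their median was -0.57, with 4 above 0 and 7 below, but it was -0.05 without WT littermate replicate 1 and 0.14 on the shared scan day. Fosl1, an AP-1 subunit, read 7.20 and 7.33 in villin-TLR4 and 9.95, 10.68 and 9.20 in WT littermates, for a difference of -2.68 ± 0.44 (SE), the lowest of the list. The villin-TLR4 values of Fosl1 lie close to the lowest signals well above background on those arrays, 6.92 and 7.17. The size of its difference is therefore uncertain. Anxa1, a repair-associated annexin, gave -1.15 ± 0.51 and the matrix-associated Ccn2 -0.57 ± 0.28, both with no overlap and higher in WT littermates. Areg, an EGF receptor ligand, went the other way at 1.27 ± 0.70, with overlap. Tnfrsf12a therefore differed in the direction of Fosl1, Anxa1 and Ccn2 but not of the whole list.

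The genes whose profile over the 5 arrays came closest to that of Tnfrsf12a were sought among the 10235 other named genes measured on all arrays. Likeness was the root mean square difference of log2 values after each gene's mean over the 5 arrays was removed. The closest was Angptl4, a secreted inhibitor of lipoprotein lipase, at 0.32, followed by the interferon-induced Ifi27l2a at 0.35, the keratin Krt13 at 0.41 and the metalloprotease inhibitor Timp1 at 0.43. Next came the oxygen-sensing factor Hif1a at 0.45, the heme oxygenase Hmox1 at 0.48, the interferon-induced guanylate-binding protein Gbp2 at 0.49 and the phosphatase Ptpre at 0.50. All 8 were lower on both villin-TLR4 arrays than on any WT littermate array, with differences from -2.10 for Angptl4 to -1.47 for Gbp2. Krt13 read 6.69 and 6.57 in villin-TLR4, under the lowest signals well above background on those arrays, 6.92 and 7.17. On WT littermate replicate 3 it read 6.98, close to that array's limit of 6.75. The size of the Krt13 difference is therefore uncertain. Of the 8, Ptpre had kept probes on both sides of 0, from -1.49 to 0.17. They were picked for this pattern, so their differences describe it and were not used as a test.

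**Figure D4:**
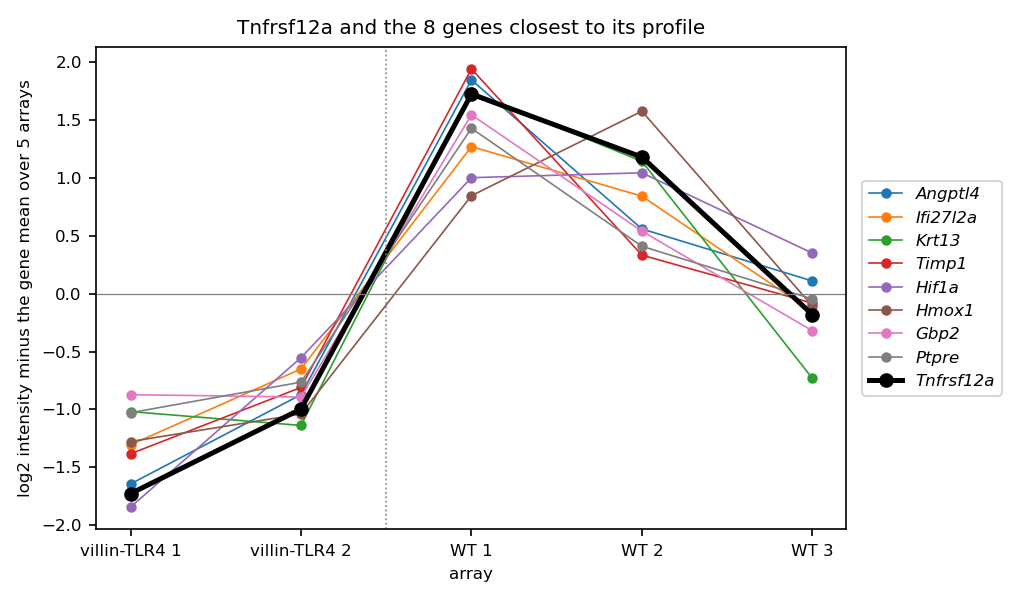
Log2 intensity minus the gene's own mean over the 5 arrays (y axis) for Tnfrsf12a (thick black line) and the 8 named genes with the closest profile, on each array (x axis). Lines only join the values of a gene. All 9 genes are below their mean on the villin-TLR4 arrays and above it on WT littermate replicates 1 and 2.

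**Figure D5:**
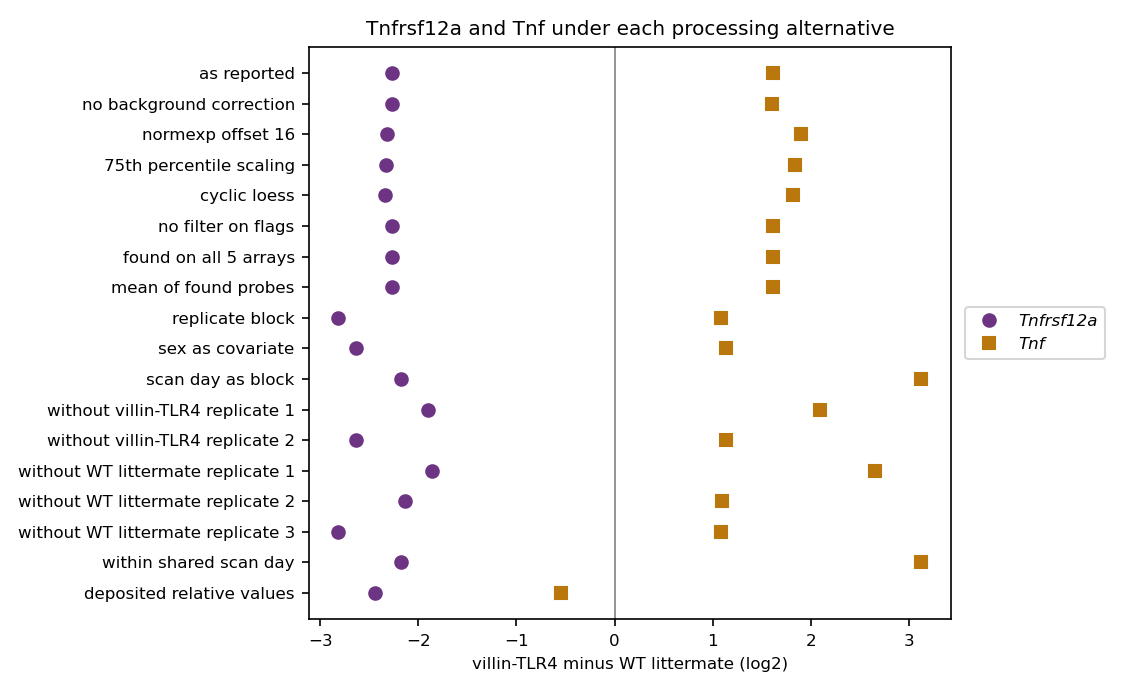
Difference between genotypes (x axis, villin-TLR4 minus WT littermate, log2) of Tnfrsf12a (circles) and Tnf (squares) as reported and under each processing alternative (rows). Tnfrsf12a stays between -2.81 and -1.86, and Tnf runs from -0.55 to 3.13.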

How the data were processed

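Gene expression was read from 5 single-colour arrays, 2 from villin-TLR4 and 3 from WT littermate colon. The deposited scanner values are unnormalised foreground and local background intensities at 635 nm, read with GenePix Pro, with a flag score for each of 38880 spots, per the file headers. A deposited table of relative intensities, each a ratio to a probe reference whose origin is not stated, served as an alternative. On the 8824 probes complete in it, at least 96.6% of values per array equalled the background-subtracted scanner median times an array factor and a probe factor within 0.02 log2. Its scale is linear, brighter is higher, the centring stays unknown, and column medians were 0.98 to 1.18.

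Median foreground was corrected for background by limma 3.58.1 (R 4.3.3) using normexp with an offset of 50, bad spots were set to missing, and the 35078 gene probes were taken to log2 and quantile normalised. Probes were named by RefSeq accession through a RefSeq table of GRCm38.p6, which gave 23071 probes 1 symbol and left 12007 unnamed. The brightest probe found on at least 2 arrays stood for a gene, and genotype was tested with lmFit and eBayes, two-sided, at an adjusted p of 0.05. Arrays came from 3 scan days, with both genotypes on 1 of them. The labels do not say that samples came from separate mice, so a p-value here reflects the spread among these samples alone, which may be technical. The deviations of same-numbered samples from their group means had correlations of -0.15 and -0.21 over 14605 genes. With 2 villin-TLR4 samples, the deviations of replicate 2 are those of replicate 1 with the sign reversed. These correlations therefore cannot decide whether same-numbered samples are pairs. Replicate numbers were not taken as pairs in the main fit, and a replicate block was an alternative. The code was tested on simulated data.

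Members and lists were chosen with earlier results of these data known. Named genes were all members, up to 4 genes a list by the smallest unadjusted p (1 of these is not reported here), and the 8 genes closest to Tnfrsf12a in profile. Alternatives were the background correction, the scaling, the filter, the mean of probes, a replicate block, sex, scan day, the deposited table and leaving out each array. No genome build for the probes was used.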

Additional observations from a re-analysis of the deposited data

How the results depend on the processing

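Tnfrsf12a and Tnfrsf1a kept their direction under all 17 alternatives, and no member passed over all genes under any. The 17 are not independent checks. The sex covariate gave the same difference as leaving out villin-TLR4 replicate 2, the only male. The replicate block matched leaving out WT littermate replicate 3, and the scan day block matched the shared scan day. Tnfrsf12a has 1 probe, found on every array, so the filter and the mean of probes could not change its difference. Its adjusted p was lowest, at 0.062 by limma, with the replicate block. With no filter 1373 genes had an unadjusted p under 0.05, with sex as a covariate 247 and with scan day as a block 321, and between 247 and 1639 when an array was left out. With scan day as a block 4 genes passed over all genes and 2 members, Tnfrsf12a and Tnf, had an unadjusted p under 0.05, and without single arrays 0 to 2 members did, the 0 without villin-TLR4 replicate 1. With the replicate block 19 genes passed, 1 of them a pathway list gene, Fosl1. The cause of the shifts was not tested.

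Small differences changed sign. Tnfrsf1b became 0.28 with scan day as a block and within the shared scan day, and with single arrays left out it ran from -0.38 to 0.27, above 0 without villin-TLR4 replicate 1 and, at 0.08, without WT littermate replicate 1. Tnfrsf21 became -0.029 with no background correction, -0.028 with 75th percentile scaling, -0.059 with cyclic loess, -0.23 with sex as a covariate, -0.11 with scan day as a block and within that day and -0.30 with the deposited values, and ran from -0.29 (without WT littermate replicate 1) to 0.29 (without villin-TLR4 replicate 1). Fas became -0.13 with the replicate block and -0.020 with sex as a covariate, and ran from -0.13 (without WT littermate replicate 3) to 0.46 (without WT littermate replicate 1). Ltbr became 0.039 with 75th percentile scaling, 0.19 with scan day as a block and within that day and 0.018 with the deposited values, and ran from -0.18 (without villin-TLR4 replicate 2) to 0.11 (without villin-TLR4 replicate 1). Tnfsf13b became -0.21 with scan day as a block and within that day. Tnf became -0.55 with the deposited values, a table that has no Tnf value for WT littermate replicates 2 and 3, so the contrast there is with WT littermate replicate 1 alone.

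Signal over background limits Tnfsf12, Tnfsf10, most ligands and Tnf on WT littermate replicates 2 and 3. There Tnf read 6.83 and 6.81, beside 6.76 and 6.75 for the lowest spot well above background.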

Other observations

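The same search for close profiles was run for Tnf after its values had been seen. The closest of 10235 named genes was the vasodilator peptide gene Adm, with a root mean square difference of 0.47. The epithelial NADPH oxidase Nox1 and the RNA-decay enzyme Zc3h12a, a brake on inflammatory transcripts, followed at 0.48 and 0.49, and Tnfaip3, the ubiquitin-editing inhibitor of NF-kappaB, stood at 0.55. The remaining genes were Cldn14, Uox, Slc16a3 and the mucin Muc1. In each of the 8, WT littermate replicates 2 and 3 had the lowest values of the 5 arrays. Zc3h12a read 10.02 and 10.69 in villin-TLR4 and 9.67, 7.79 and 7.73 in WT littermates, and the groups of Zc3h12a and Tnfaip3 did not overlap while those of the other 6 did. These genes were picked for the pattern, and none passed over all genes.

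In the deposited table the relative value of Tnfrsf12a was 0.133 and 0.253 in villin-TLR4 and 2.77, 0.928 and 0.388 in WT littermates, the same order of groups as in the scanner values. Tnf had 3.55 and 8.21 in villin-TLR4 and 7.89 on WT littermate replicate 1.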
